A study of Mus musculus with 12 samples.

Results

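Cholecystokinin and its receptors were described across 12 libraries of mouse dorsal root ganglion, where the cell bodies of sensory neurons lie beside the spinal cord. The 3 genes, Cck, Cckar and Cckbr, were taken by symbol from the 23238 symbols in the count files, and each was found. The set was chosen by the response of Cckbr, which was among the largest increases of sciatic nerve injury (SNI) against sham, so that every SNI against sham value of the 3 genes is given as a description, without a test. Ganglia of lumbar levels 3 to 5 came from C57BL/6 mice at 8 weeks of age, in 4 groups of 3 libraries: Female sham, Female SNI, Male sham and Male SNI. The labels give no transgene and no drug for any group. No source used here gives the kind of nerve injury, the time from operation to dissection or the number of animals behind a library. The replicates may therefore be technical, and the p-values cover only the spread among them.

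Cholecystokinin is a peptide made as a longer prohormone, cut by convertases, sulfated on a tyrosine and amidated at its end. It acts on a pair of G protein-coupled receptors. The receptor encoded by Cckar prefers the sulfated peptide and is best known from the pancreas, gallbladder and vagal sensory neurons. The receptor encoded by Cckbr also binds gastrin and the unsulfated peptide, and is the main form in the brain. Both couple to Gq, which activates phospholipase C, releases calcium through the IP3 receptor and activates protein kinase C. In sensory pathways cholecystokinin is known for opposing opioid analgesia, and Cckbr is known as a receptor that sensory neurons make after their axons are cut.

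Cckbr lies on chromosome 7 (105425676 to 105436339, plus strand), Cck on chromosome 9 (121489824 to 121495694, minus strand) and Cckar on chromosome 5 (53698485 to 53707704, minus strand), in RefSeq on GRCm38.p6, the build also called mm10. In GENCODE release vM21 no exon of the 3 genes overlapped an exon of another gene. The GENCODE models reach further at the 3′ end, to 105470898 for Cckbr and to 53697776 for Cckar, and no source used here says which models were counted.

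The bases upstream of the RefSeq gene start are shown for Cckbr, the member with the largest difference, and for Cck, the ligand. They were found for 2 of the 3 members, are credited to RefSeq (GRCm38.p6) and read 5′ to 3′ on the strand of the gene. Cckbr covers chr7:105425481-105425675 and Cck covers chr9:121495695-121495944. Capitals mark the motif TGCGTCA.
Cckbr: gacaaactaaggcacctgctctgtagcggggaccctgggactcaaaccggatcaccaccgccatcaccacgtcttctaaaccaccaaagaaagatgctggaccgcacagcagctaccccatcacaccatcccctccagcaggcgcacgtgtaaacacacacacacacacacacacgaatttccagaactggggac
Cck: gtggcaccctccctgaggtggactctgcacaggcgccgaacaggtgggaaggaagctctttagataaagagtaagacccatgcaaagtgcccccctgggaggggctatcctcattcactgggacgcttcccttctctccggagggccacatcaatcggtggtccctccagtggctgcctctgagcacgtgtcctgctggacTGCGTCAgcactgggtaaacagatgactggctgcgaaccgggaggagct
Both strands of each 300-base promoter window were searched for 3 motifs of the ATF and AP-1 transcription factors, the family of the injury marker Atf3. TGANTCA, a wide form of the AP-1 motif with any base at N, and TGACGTCA, the cAMP response element, were in neither window. These letters were in 7.81% and 1.79% of 32851 mouse promoter windows of that length. TGCGTCA, a variant of the cAMP response element, was in 2.12% of the windows and in that of Cck, from 49 to 43 bases before the gene start. TGCGTCA was not in the Cckbr window. A match is a string of letters and was not tested as a binding site.

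Library totals lay between 12476606 and 15520746 counts. Atf3, a transcription factor induced by axon damage, was at 43.6 to 56.7 CPM in the 6 sham libraries and at 275 to 361 CPM in the 6 SNI libraries, so that no library went against its injury label. CPM is the count of a gene per 1000000 counts of its library, on totals scaled by edgeR's TMM method. Sensory neuron markers were high in every library, with a summed level of 17135 to 26477 CPM over 11 genes, of which 5 fell after injury and none rose. Of 10 macrophage markers 9 rose, from summed levels of 118 to 189 CPM in sham to 268 to 448 CPM in SNI libraries. In bulk ganglia fewer cells of a type and less RNA per cell cannot be told apart, and the part of these cell types in the values below was not tested. Male SNI replicate 2 and Female sham replicate 2 stood apart, with scores of 84.3 and 41.9 on the first principal component (31.3% of the variance) and scores of -29.5 to 2.25 for the other 10 libraries. Male SNI replicate 1 had a sum of 8 skeletal muscle markers of 1635 CPM, against 157 to 265 CPM in the other 11 libraries. Without it the changes averaged over the sexes were 3.01 for Cckbr, 1.02 for Cckar and 0.76 for Cck. Member values are also given without both Male SNI replicate 2 and Female sham replicate 2 where they move.

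For each of the 3 genes SNI and sham values were apart in females and in males, with no overlap. Since the contrast chose the genes, nothing is read from this count. How many of all genes show no overlap was not counted, so the count has no background beside it. By another measure, 6.52% of 15036 tested genes passed for injury in edgeR (adjusted p below 0.05).

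Cckbr was low in sham ganglia and 8.49 times as high after injury. The counts were 43, 21 and 37 in Female sham and 34, 22 and 57 in Male sham replicates 1 to 3. After injury they were 308, 404 and 317 in females and 293, 214 and 276 in males. Each SNI library was above each sham library.

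As CPM, Cckbr was at 3.22, 1.59 and 2.49 in Female sham and at 20.03, 27.5 and 23.3 in Female SNI replicates 1 to 3. In males it was at 2.52, 1.68 and 3.63 in sham and at 23.8, 16.4 and 18.9 in SNI replicates 1 to 3. Group means were 2.43 ± 0.818 and 23.6 ± 3.73 CPM in females and 2.61 ± 0.976 and 19.7 ± 3.75 CPM in males (SD, n = 3 each). The lowest SNI library, Male SNI replicate 2, was at 16.4 CPM against 3.63 CPM in the highest sham library, Male sham replicate 3. The fitted log2 change in edgeR was 3.27 ± 0.32 in females (SE; 95% interval 2.58 to 3.96) and 2.90 ± 0.32 in males (2.22 to 3.58). Averaged over the sexes it was 3.09 ± 0.22 (interval 2.60 to 3.57), and it was 3.04 without the pair of libraries that stood apart. By size of change Cckbr stood at place 42 of 15036 tested genes.

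Cckar, the gene of the other receptor, was also higher after injury in both sexes, by a smaller factor. In Female sham replicates 1 to 3 it was at 49.9, 87.2 and 64.4 CPM, and in Female SNI replicates 1 to 3 at 136, 116 and 91.4 CPM. In males it was at 71.5, 52.8 and 47.0 CPM in sham and at 104, 164 and 112 CPM in SNI replicates 1 to 3. The lowest SNI library, Female SNI replicate 3 at 91.4 CPM, stood just above the highest sham library, Female sham replicate 2 at 87.2 CPM. The gap was wider in males, where the lowest SNI and the highest sham library were 32.5 CPM apart, against 4.22 CPM in females.

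Group means of Cckar were 67.2 ± 18.8 and 114 ± 22.5 CPM in females and 57.1 ± 12.8 and 126 ± 32.3 CPM in males. The fitted log2 change was 0.77 ± 0.24 in females (95% interval 0.26 to 1.28) and 1.15 ± 0.24 in males (0.64 to 1.66). Averaged over the sexes it was 0.96 ± 0.17, a 1.94-fold difference, and 0.97 without the libraries that stood apart. With 666 to 2129 counts per library, Cckar varied within groups by more than its counting error. The 95% exact interval of Female sham replicate 1 was 46.2 to 53.8 CPM and that of Female sham replicate 2 was 82.2 to 92.4 CPM.

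Cck, the gene of the peptide itself, was near the lower limit of detection. The counts were 16, 21 and 16 in Female sham and 10, 14 and 5 in Female SNI replicates 1 to 3. In Male sham they were 0, 9 and 8, and in Male SNI 15, 45 and 16. The values lay in opposite directions in the sexes: each Female SNI library was below each Female sham library, and each Male SNI library was above each Male sham library.

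In CPM, Cck was at 1.20, 1.59 and 1.08 in Female sham against 0.650, 0.952 and 0.367 in Female SNI replicates 1 to 3. In males it was at 0, 0.689 and 0.509 in sham against 1.22, 3.46 and 1.10 in SNI replicates 1 to 3. No count was found in Male sham replicate 1, which allows a level of up to 0.223 CPM (3 counts, a one-sided limit). The 95% exact interval was 0.685 to 1.95 CPM for Female sham replicate 1 and 0.312 to 1.20 CPM for Female SNI replicate 1, so that these intervals overlapped. Intervals and this limit cover counting error only, since no molecular identifiers are stated.

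Fitted log2 changes of Cck were -0.96 ± 0.85 in females (95% interval -2.79 to 0.87) and 2.24 ± 0.89 in males (0.33 to 4.15). Averaged over the sexes the change was 0.64 ± 0.61, with an interval of -0.67 to 1.95, and it was 0.37 without the libraries that stood apart. It was 0.28 without Male SNI replicate 2, 0.36 without Male sham replicate 1 and 0.93 without Male sham replicate 2. The male value was 1.51 without Male SNI replicate 2, 1.67 without Male sham replicate 1 and 2.83 without Male sham replicate 2. Male SNI replicate 2, the highest library for Cck, also had the highest sum of 8 markers of the central nervous system, where Cck is abundant: 89.1 CPM against 37.7 to 74.0 CPM in the other libraries. Most of that sum was Slc17a7, a vesicular glutamate transporter that sensory neurons also make, at 85.2 CPM in that library. Opalin, of oligodendrocytes, and Slc6a5, of glycinergic neurons, had no count in any of the 12 libraries. The other markers of that sum went both ways in Male SNI replicate 2. Gad2 was at 0.768 CPM there, near its highest level of 0.808 CPM over the libraries. Mog was at 0.154 CPM, near its highest level of 0.163 CPM. Mobp and Gad1 had no count in that library, and Aqp4 was at its lowest level of all libraries. Among central nervous system markers 3 of 8 were tested and none was called after injury. Their part in the Cck value was not tested.

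**Figure D1:**
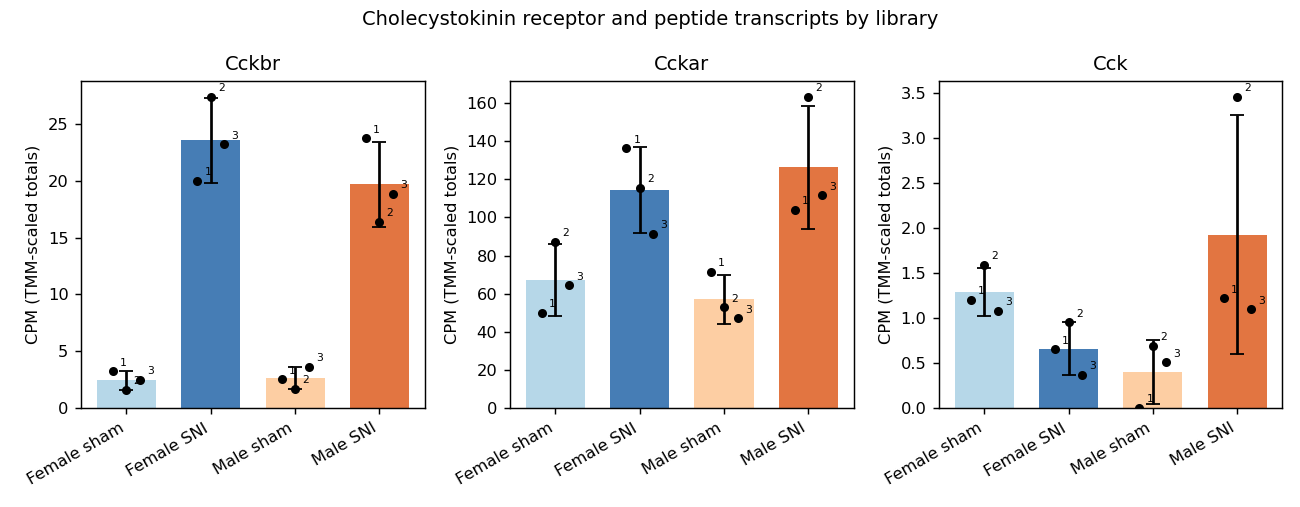
Level of Cckbr, Cckar and Cck in each library, as CPM on TMM-scaled totals, with a panel and a linear axis for each gene. Bars are group means with the SD of 3 libraries, and points are libraries with their replicate number. Cckbr is at 1.59 to 3.63 CPM in the sham and 16.4 to 27.5 CPM in the SNI libraries, Cckar is at 91.4 CPM or more in the SNI and 87.2 CPM or less in the sham libraries, and Cck is at 3.46 CPM or less, with SNI below sham in females and above it in males.

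The study compares the sexes, a contrast that did not enter the choice of the genes. No member differed between males and females at an adjusted p of 0.05 in edgeR's quasi-likelihood test. The background was as small: 0% of 15036 tested genes passed for the sex by injury interaction, and 0.0399% (6 genes) passed for males minus females, both in sham and after SNI. For the interaction, 1100 genes had an unadjusted p below 0.05 in edgeR, and DESeq2 also called 0 genes, with 1263 below that unadjusted p.

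For Cckbr the male change less the female change was -0.37 ± 0.43 on the log2 scale (SE; 95% interval -1.29 to 0.56; edgeR adjusted p = 0.781). It was -0.029 without the libraries that stood apart, and with 1 library left out it lay between -0.61 (without Female sham replicate 1) and -0.040 (without Male sham replicate 3). Sham levels differed by 0.11 ± 0.32 (males minus females; interval -0.59 to 0.81; edgeR adjusted p = 0.965), and the sign turned to -0.11 without the libraries that stood apart, to -0.12 without Female sham replicate 2 and to -0.21 without Male sham replicate 3. After SNI the difference was -0.26 ± 0.28 (interval -0.87 to 0.35; edgeR adjusted p = 0.887), and it was -0.14 without the libraries that stood apart. With 1 library left out it lay between -0.42 (without Male SNI replicate 1) and -0.13 (without Female SNI replicate 2). The interval of the interaction reaches from a smaller to a larger response in males, so these data do not show that the sexes respond alike.

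For Cckar the interaction was 0.38 ± 0.33 (95% interval -0.34 to 1.09; edgeR adjusted p = 0.712) and was -0.077 without the libraries that stood apart. With 1 library left out it lay between 0.14 (without Male SNI replicate 2) and 0.57 (without Female sham replicate 1). Male minus female values were -0.23 ± 0.24 in sham (interval -0.74 to 0.27; edgeR adjusted p = 0.938) and 0.14 ± 0.23 after SNI (interval -0.36 to 0.65; edgeR adjusted p = 0.915). The sham value was -0.0026 without the libraries that stood apart and -0.0020 without Female sham replicate 2, the sham library with the highest Cckar level. The value after SNI turned to -0.087 without Male SNI replicate 2, the library with the highest Cckar level.

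For Cck the interaction was the largest of the 3, at 3.20 ± 1.23 (95% interval 0.55 to 5.84), with an unadjusted p of 0.0214 and an adjusted p of 0.647 in edgeR. Each Female SNI library lay below each Female sham library, and each Male SNI library above each Male sham library. The interaction did not pass the correction. DESeq2 gave 3.25 (adjusted p = 0.481), and over 19 alternatives the value lay between 2.30 and 3.79 with adjusted p from 0.215 to 0.960. The lowest value was that without both libraries that stood apart. Male minus female values of Cck were -1.66 ± 0.89 in sham (interval -3.57 to 0.25; edgeR adjusted p = 0.938) and 1.53 ± 0.85 after SNI (interval -0.30 to 3.36; edgeR adjusted p = 0.882). Without Male SNI replicate 2 the value after SNI was 0.80, and without Male sham replicate 1 the value in sham was -1.09.

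**Figure D2:**
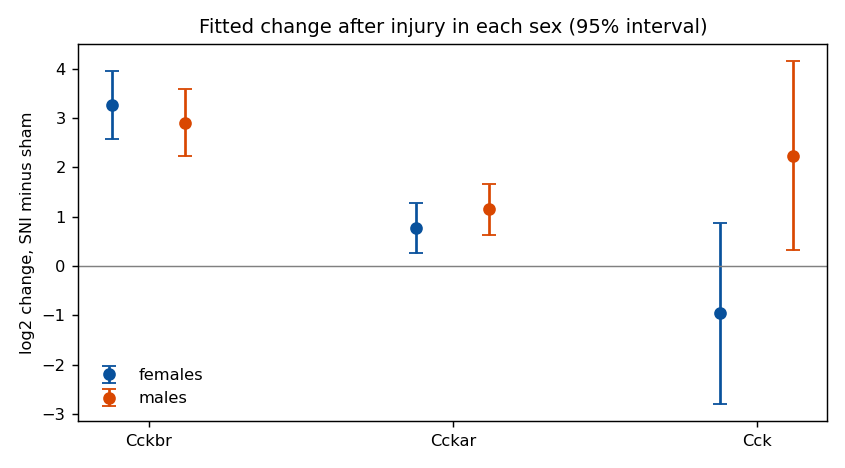
Fitted log2 change from sham to SNI in females (blue) and males (orange) for the 3 genes, with 95% intervals from the edgeR model over 12 libraries. Cckbr is near 3 and Cckar near 1 in both sexes with overlapping intervals, while the Cck points are at -0.96 and 2.24 with wide intervals.

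Because both receptor genes were higher, their balance was compared within each library, where scaling between libraries has no part. The kit reads 1 end of a transcript, so counts were not divided by transcript length. Of the counts of Cckbr and Cckar together, Cckbr made up 6.06%, 1.79% and 3.73% in Female sham and 12.8%, 19.2% and 20.3% in Female SNI replicates 1 to 3. In males the share was 3.41%, 3.09% and 7.17% in sham and 18.6%, 9.13% and 14.5% in SNI replicates 1 to 3. The highest sham library was at 7.17% (95% exact interval 5.48 to 9.19) and the lowest SNI library, Male SNI replicate 2, at 9.13% (8.00 to 10.4). Sham and SNI shares did not overlap but these intervals did. Cckbr was chosen for its large increase, which favours a higher share after SNI, so the shares are a description and no finding.

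Group shares were 3.86 ± 2.14% and 17.4 ± 4.04% in females and 4.56 ± 2.27% and 14.1 ± 4.76% in males (SD, n = 3). Cckar gave most receptor counts in each library, also after injury. The summed level of both receptors was 69.6 ± 18.0 CPM in Female sham and 138 ± 21.3 CPM in Female SNI, and 59.7 ± 12.6 and 146 ± 29.3 CPM in the males.

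**Figure D3:**
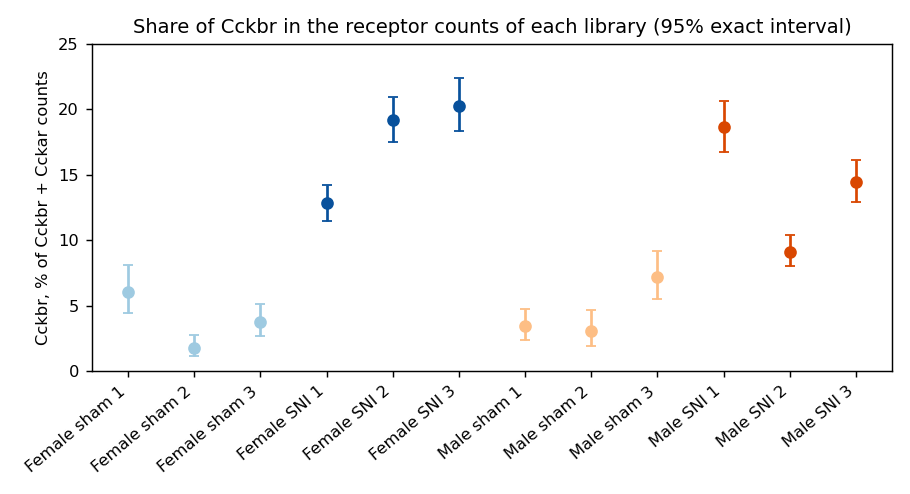
Cckbr as a percentage of the Cckbr and Cckar counts in each of the 12 libraries, with 95% exact binomial intervals for counting error. The 6 sham libraries sit between 1.79% and 7.17% and the 6 SNI libraries between 9.13% and 20.3%.

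Within groups, libraries with more Cckar tended to have less Cckbr. The correlation of the deviations of Cckbr and Cckar from their group means (log2 of CPM + 0.5) was -0.64 over 12 libraries, and -0.38 over the 10 libraries without the pair that stood apart, given as a description. Female sham replicate 2 and Male SNI replicate 2 each had the lowest Cckbr and the highest Cckar level of their group. Both libraries also had the highest summed sensory neuron markers of their group, at 26477 and 23224 CPM. They had the lowest sums of satellite glia markers, at 621 and 806 CPM, and of Schwann cell markers, at 3829 and 4112 CPM. The part of this in the receptor levels was not tested. For Cck the correlation of deviations was -0.30 with Cckbr and 0.26 with Cckar, and -0.0036 and -0.37 over the 10 libraries.

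The other genes of the pathway were taken from 4 lists, and none of the 3 members is in them. Over all 15036 genes, 569 rose and 411 fell after injury averaged over the sexes (980 genes, or 6.52%), and the median log2 change was 0.0031. Without Male SNI replicate 2, 952 rose and 814 fell, and without both libraries that stood apart 1023 rose and 825 fell.

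Gastrin, the other ligand of the Cckbr receptor, was near absent. Gast had 3 counts in all, in 2 Female sham libraries, and did not pass the filter on low counts. It was 1 of 14 genes in a list of gastrin and genes linked to the cutting, amidation and sulfation of the prohormone. Of these 13 were tested and 1 rose (7.69%, beside 6.52% of all genes, a share near the background), none was lower by the test, and the median log2 change was -0.023. Pcsk1, the gene of a prohormone convertase, rose by 0.32 ± 0.09 (edgeR adjusted p = 0.0449). Female sham libraries were at 52.1 ± 0.337 CPM and Female SNI libraries at 59.6 ± 7.05 CPM, against 45.3 ± 1.91 and 61.5 ± 2.59 CPM in the males. In the 12 fits that each left out 1 library, Pcsk1 passed in 3, those without Female SNI replicate 1 and without Male SNI replicate 2 or 3. The other 12, among them Pcsk2, Cpe, Pam and the tyrosine sulfotransferase genes Tpst1 and Tpst2, lay between -0.15 and 0.14. Cpe, of a carboxypeptidase, was called lower only without Male SNI replicate 2, at -0.24 (edgeR adjusted p = 0.0367).

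None of 9 peptidase genes linked to the breakdown of neuropeptides passed, with a median of -0.16 and 1 of 9 values above 0. Mme, the gene of neprilysin, was closest, at -0.47 (edgeR adjusted p = 0.0551). DESeq2 called Mme lower, and so did edgeR when Female sham replicate 1 or, in another fit, Male SNI replicate 2 was left out. The list's values from edgeR reached from -0.51 to 0.12.

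Genes of the Gq pathway went in both directions. Of 27, 26 were tested, 3 rose and 4 fell (7 of 26, or 26.9%, beside 6.52% of all genes), with a median of -0.19. Itpr1, the gene of an IP3 receptor calcium channel, rose by 0.93 ± 0.17 (edgeR adjusted p = 0.00343). It was at 11.1 ± 3.66 and 23.6 ± 1.42 CPM in female and 10.3 ± 0.980 and 17.7 ± 1.67 CPM in male sham and SNI libraries, without overlap within a sex. Exons of Gm44040 and Gm44101 on the other strand overlap Itpr1, and the counting is not stated to use strand, so its value is uncertain.

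Arrb1, which encodes a beta-arrestin that ends receptor signalling, rose by 0.54 ± 0.14 (edgeR adjusted p = 0.0293), and the receptor kinase gene Grk6 rose by 0.57 ± 0.14 (edgeR adjusted p = 0.0293). Arrb1 was at 222 ± 43.5 and 291 ± 15.9 CPM in female and 202 ± 13.2 and 326 ± 105 CPM in male sham and SNI libraries. With 1 library left out, Arrb1 passed only without Female sham replicate 2 or any Male SNI replicate. Grk6 passed only without those libraries, Female SNI replicate 1 or Male sham replicate 2.

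Of 7 protein kinase C genes in the list 6 were tested and 3 fell, and of these 3 Prkcq alone passed in each fit with 1 library left out. Prkcq, of the theta form, fell by 0.77 on the log2 scale (SE 0.12; edgeR adjusted p = 0.00135). It was at 34.9 ± 3.27 CPM in Female sham and 19.5 ± 1.84 CPM in Female SNI, and at 33.1 ± 5.35 and 20.3 ± 2.31 CPM in the male groups, with no overlap within a sex. Prkcb, at -0.29 ± 0.07, and Prkce, at -0.29 ± 0.08, also fell (edgeR adjusted p = 0.0310 and 0.0399), as did Rgs3, a gene for a protein that shortens G protein signals, at -0.33 ± 0.09 (edgeR adjusted p = 0.0366). Prkca, at -0.36 (edgeR adjusted p = 0.116), and the Gq subunit gene Gnaq, at -0.26 (edgeR adjusted p = 0.188), did not pass. Both were called lower with limma sample quality weights (adjusted p = 0.000459 and 0.0363). Gnaq was also called lower without Male SNI replicate 3 (edgeR adjusted p = 0.0304).

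Itpr1 and Prkcq passed in each of the 12 fits with 1 library left out. Prkcb passed only without Female sham replicate 2, Female SNI replicate 2 or Male SNI replicate 2 or 3, Prkce only without Male SNI replicate 2, and Rgs3 only without Male SNI replicate 2 or 3. Without Male SNI replicate 2, 8 genes of the list fell, Prkca (-0.49) and Plcb3 (-0.36) among them, and without both libraries that stood apart 7 did. An exon of AC154542.1 overlaps Prkce on the same strand, so the value of Prkce is uncertain.

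Among receptors of other peptides a pair of genes rose and a pair fell. Of 79 receptor genes 29 were tested, 2 rose and 2 fell (13.8% called, beside 6.52% of all genes), with a median of -0.26, and their values ranged from -1.47 for Oprd1 to 1.39 for Mchr1. Mchr1, the receptor gene for melanin-concentrating hormone, was at 3.01 ± 1.90 and 5.68 ± 1.60 CPM in female and 2.004 ± 0.589 and 7.39 ± 2.41 CPM in male sham and SNI libraries. It rose by 1.39 ± 0.33 (edgeR adjusted p = 0.0202) and did not pass without Female sham replicate 3, Female SNI replicate 3 or Male sham replicate 1.

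Prokr2, a prokineticin receptor gene, rose by 1.02 ± 0.15 (edgeR adjusted p = 0.000645), beside 0.96 for Cckar, which was not tested. It was at 12.7 ± 1.10 and 26.3 ± 3.16 CPM in females and at 11.3 ± 2.45 and 22.5 ± 3.69 CPM in males, without overlap within a sex, and passed in all 12 fits with 1 library left out. Ntsr2, a neurotensin receptor gene, fell by 1.45 (SE 0.39; edgeR adjusted p = 0.0420) and passed only without Female sham replicate 1, Male sham replicate 1 or Male SNI replicate 2. Oprl1, the nociceptin receptor gene, fell by 0.90 (SE 0.21; edgeR adjusted p = 0.0187), and did not pass without Female sham replicate 1, Female SNI replicate 1 or 3 or Male sham replicate 3. The classical opioid receptor genes Oprm1 at 0.66, Oprd1 at -1.47 and Oprk1 at -0.38 did not pass, with means of 1.10, 1.06 and 1.64 CPM over the libraries. Npy2r, a neuropeptide Y receptor gene, was at 0.58 (edgeR adjusted p = 0.0835) and was called higher by DESeq2 (adjusted p = 0.0331), with the replicate number as a block (edgeR adjusted p = 0.0374), with limma sample quality weights (adjusted p = 0.00220), without Male SNI replicate 2 (edgeR adjusted p = 0.00406) and without both libraries that stood apart (edgeR adjusted p = 0.00420).

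**Figure D4:**
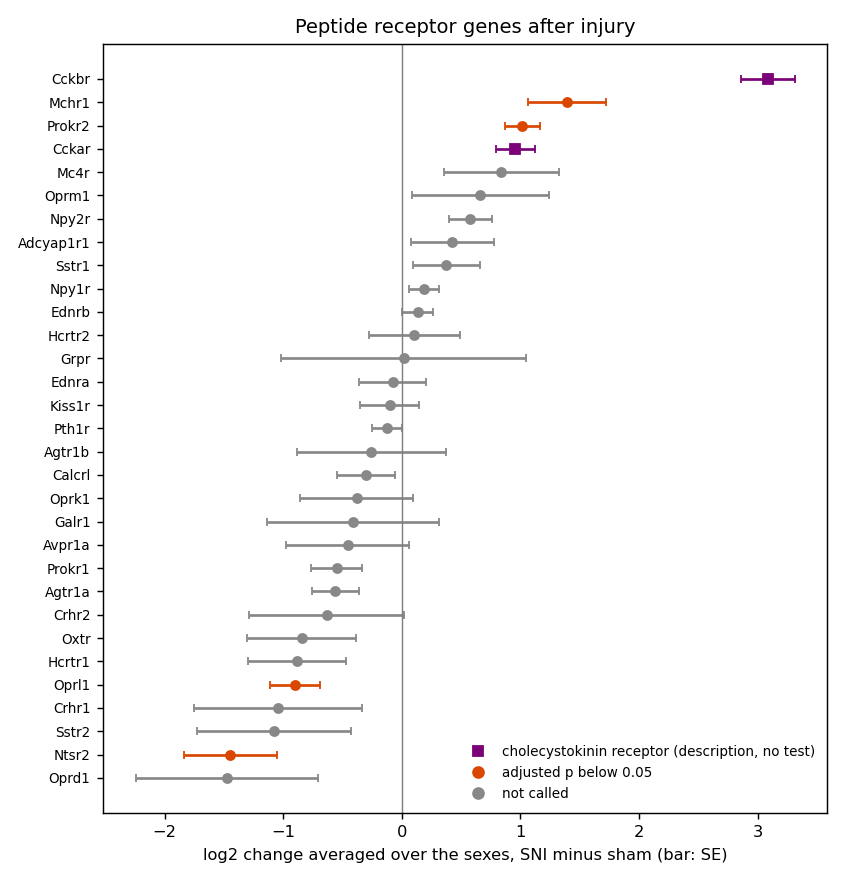
Log2 change from sham to SNI, averaged over the sexes, with its SE, for the 29 tested peptide receptor genes (circles, orange where called) and the 2 cholecystokinin receptors (squares, not tested). Cckbr is at 3.09, Mchr1 at 1.39, Prokr2 at 1.02 and Cckar at 0.96.

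The genes whose levels were most like those of Cckbr were found by the Pearson correlation of log2(CPM + 0.5) over the 12 libraries, among 10856 tested genes that averaged at least 5 CPM. They were Ndst1 (0.98), a heparan sulfate enzyme gene, Rtn4 (0.98), which encodes Nogo, Pcnx (0.98), Atf3 (0.98) and the neuropeptide gene Nts (0.98). All 5 rose after injury in edgeR, by 0.46 for Ndst1, 0.48 for Rtn4, 0.98 for Pcnx, 2.63 for Atf3 and 2.44 for Nts, so their likeness holds the shared difference between SNI and sham. Exons of other genes overlap Rtn4 and Pcnx. Ndst1 was at 57.7 to 63.4 CPM in the sham and 74.6 to 87.3 CPM in the SNI libraries.

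Taken within groups, as deviations from the group means, the correlation with Cckbr was 0.69 for Ndst1, 0.55 for Pcnx, 0.46 for Rtn4, 0.34 for Nts and 0.044 for Atf3. Over the 10 libraries without the pair that stood apart it was 0.76, 0.70, 0.46, -0.066 and 0.14. Cckbr counts per 100 Atf3 counts were 5.14 ± 2.15 in Female sham and 7.09 ± 1.46 in Female SNI, and 4.83 ± 1.56 and 6.60 ± 0.645 in the males, so that sham and SNI libraries overlapped in this ratio. The genes with the highest correlation of deviations were Unc79 (0.95), Arhgap15 (0.92), Gm12669 (0.91), Cpne8 (0.91) and Cep350 (0.90), and none of these 5 was called for injury. Exons of other genes overlap Unc79 and Arhgap15. Values of 0.88 to 0.97 were found over the 10 libraries, which are part of the 12 used to pick these 5 genes. As the highest of 10856 genes, these correlations are a description and no finding.

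For Cck the genes most alike over the 12 libraries were Tyw1 (0.93), Evl (0.92) and Degs2 (0.92), and by deviations Tyw1 (0.96), Trmt2a (0.95) and Tbc1d19 (0.94). Exons of Evl and Degs2 overlap each other on opposite strands, so the pair may share reads, and exons of Trmt2a overlap those of Dgcr8 and Ranbp1. None of these genes was called for injury. With 0 to 45 counts of Cck per library, these correlations rest on sparse counts and are no finding.

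**Figure D5:**
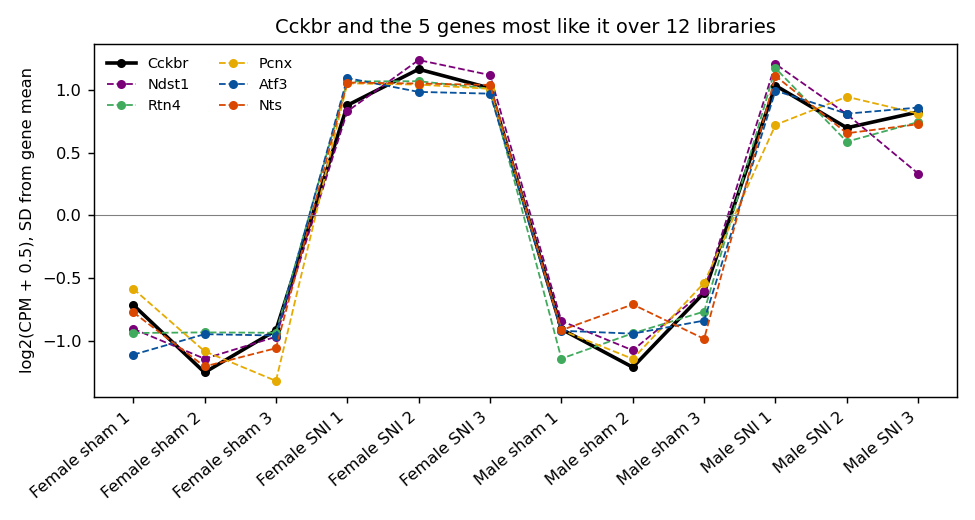
Levels of Cckbr (black) and the 5 genes most like it in the 12 libraries, as log2(CPM + 0.5) in SD units from the mean of each gene. All 6 genes lie below their mean in the 6 sham libraries and above it in the 6 SNI libraries.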

How the data were processed

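RNA from ganglia of 12 libraries was read from the 3′ end (QuantSeq 3′ kit, single-end Illumina reads), per the labels' protocols. The authors deposited 1 file of raw read counts by gene symbol for each library, as the headers state. The submitters' processing notes name mm10, Bowtie2 and bedtools. No source used here says how strand, duplicates and multiply mapped reads were handled. Rows of the same symbol were summed (35 symbols, 44 extra rows). Groups came from the titles.

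Genes were kept by filterByExpr (minimum count 10), scaled by TMM and fitted with 1 coefficient per group over all 12 libraries in edgeR 4.0.16 (R 4.3.3, limma 3.58.1), with two-sided quasi-likelihood tests and Benjamini-Hochberg adjustment over 15036 genes, called below 0.05. All 3 members passed the filter. Intervals are 95% and use the model's degrees of freedom. The precision is set by totals of 12476606 to 15520746 counts and 3 libraries a group. Before use the fit was run on data simulated from the same kind of model, without libraries that stand apart. That run does not test the fit for such libraries. DESeq2 1.42.0, other scaling, filters, weights and left-out libraries were alternatives. Older symbols were matched for 2 list genes (Grk2, Grk3).

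Named genes were the 3 members, the called genes of each list (at most 8 a list) and the 5 (Cckbr) or 3 (Cck) genes most like a member by level or by deviation. Atf3 was named as the check of the injury labels. Other genes (Cpe, Pcsk2, Pam, Tpst1, Tpst2, Mme, Prkca, Plcb3, Gnaq, Npy2r, opioid receptors) were named after their values were seen. Members, lists and tests were chosen with earlier results of these data known. The exact permutation test foreseen for a member that failed the filter was not needed.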

Additional observations from a re-analysis of the deposited data

Results flagged for a closer look

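The sex by injury interaction of Cck was flagged by the direction of its libraries. Each of the 3 Female SNI libraries was below each Female sham library. Each of the 3 Male SNI libraries was above each Male sham library. How many of all genes show such a pattern was not counted. For the interaction, 1100 of 15036 tested genes had an unadjusted p below 0.05 in edgeR. The fitted difference for Cck was 3.20 on the log2 scale. It did not pass in edgeR's quasi-likelihood test after Benjamini-Hochberg adjustment (adjusted p = 0.647, unadjusted p = 0.0214), it rests on 0 to 45 counts per library, and it was 2.46 without Male SNI replicate 2.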

How the results depend on the processing

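Over 19 alternatives, with 1 more that fitted each sex alone for the changes within a sex, the injury change of Cckbr (2.97 to 3.25) and Cckar (0.85 to 1.07) averaged over the sexes kept its direction, and no alternative called a sex difference or interaction for any member. Signs of small sex differences turned: Cckbr in sham lay between -0.21 and 0.35 with 1 library left out and at -0.11 without both Male SNI replicate 2 and Female sham replicate 2 (10 libraries), and Cckar after SNI between -0.087 and 0.29, at -0.050 with limma sample quality weights and at -0.079 in the 10 libraries. The Cckar interaction was -0.077 in the 10 libraries. The male change of Cck was 1.51 to 2.83 with 1 library left out and 1.52 in the 10 libraries. Counts of all genes called with 1 library left out were 386 to 952 higher and 233 to 814 lower, with 1025 and 983 under quality weights and 1023 and 825 in the 10 libraries. With 1 library left out, peptide processing genes called were 0 to 1 higher and 0 to 1 lower, breakdown genes 0 to 1 lower, Gq genes 1 to 3 higher and 1 to 8 lower, and other peptide receptors 1 to 3 higher and 0 to 2 lower. No filter on low counts gave 0 processing genes higher and 1 Gq gene lower, quality weights gave 1 breakdown, 9 Gq and 4 receptor genes lower, DESeq2 gave 1 breakdown gene lower, and the 10 libraries gave 7 Gq genes lower. The cause was not tested.

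With the replicate number as a block, 936 genes were called instead of 980, processing genes higher went to 0 (Pcsk1 lost), Gq genes lower to 3 (Rgs3 lost), receptor genes higher to 3 (Npy2r gained) and receptor genes lower to 1 (Ntsr2 lost). Deviations of same-numbered libraries correlated at -0.05 to 0.15 for number 1, -0.06 to 0.51 for number 2, which both libraries that stood apart carry, and -0.12 to 0.12 for number 3. Not every pair was above 0.1, so the numbers were not treated as pairing. Depth limits Cck, at 0 to 45 counts per library, and Gast.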
